A study of Mus musculus with 39 samples.

Results

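The Iroquois homeobox genes Irx1, Irx2, Irx3, Irx4 and Irx5 and the zinc-finger gene Trps1 were followed across 39 mouse tissue arrays, as 6 of 18194 named genes. Together they held 9 of the 45101 probe sets: 4 for Trps1 and 1 for each Irx gene. Each gene was represented by the probe set with the highest mean over the 39 arrays. Irx2 and Trps1 were chosen by their log2 levels, which stood higher in arrays whose genotype includes K5Cre than in Bcat arrays without K5Cre. The other Irx genes are relatives of Irx2. That contrast is therefore described below without a test.

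Genotype labels combine SB, Tg, K5Cre and Bcat, in a series titled for the Sleeping Beauty transposon, a tool of insertional mutagenesis. Breast of 15 animals with all 4 elements (SB/Tg/K5Cre/Bcat), here called quadruple, was measured on 19 arrays. Animals with SB/Tg/K5Cre, here called triple K5Cre, numbered 8 with 1 breast array each. Those with SB/Tg/Bcat, here called triple Bcat, numbered 2 with 3 breast arrays, of which Tbc-266 gave 2. Animals labelled Bcat +/-, with no SB, Tg or K5Cre in the label, gave 2 arrays of masses in the breast (2 animals) and 3 arrays of ventral tumours, all from 1 animal; these 5 arrays are called the Bcat-only lesions. The 4 normal mammary glands came from animals of the same engineered genotypes (2 triple K5Cre, 1 quadruple, 1 triple Bcat) and so were not wild-type tissue. K5Cre is the usual name for Cre recombinase driven by the keratin 5 promoter, active in basal epithelial cells. The identifiers of all 5 Bcat-only lesions carry C57 and those of no other group do; the labels do not say what it stands for, and it cannot be told apart from that group. The labels state no age or strain, do not say which Bcat allele was used, and do not call the quadruple and triple breast samples tumours.

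Iroquois genes encode transcription factors of the TALE homeodomain class and lie in a pair of clusters, one with Irx1, Irx2 and Irx4 and the other with Irx3, Irx5 and Irx6. They pattern the heart, limb, nervous system and other organs in development, and Irx2 is known to be expressed in mammary epithelium. Trps1 encodes a GATA-type zinc-finger repressor; its loss causes tricho-rhino-phalangeal syndrome, which affects hair, face and bone, and its human counterpart is widely expressed in breast epithelium and breast carcinoma.

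Sequences upstream of a start site were found for 3 of the 6 genes (Irx2, Irx3 and Irx4) in the RefSeq promoter table of mouse assembly GRCm38.p6. They are shown as the sequences found for this family. In the Bcat-only lesions against normal gland, Irx2 fell (fitted log2 difference -2.11). Irx4 (-1.86) and Irx3 (-0.29) did not pass that test (the difference between the genes was not tested). Each is the 250 bases before the annotated start, 5′ to 3′ on the gene's own strand, with every CpG pair in capitals. Irx2 is at chr13:72628570-72628819 on the plus strand, Irx4 at chr13:73260247-73260496 on the plus strand and Irx3 at chr8:91801655-91801904 on the minus strand.
Irx2: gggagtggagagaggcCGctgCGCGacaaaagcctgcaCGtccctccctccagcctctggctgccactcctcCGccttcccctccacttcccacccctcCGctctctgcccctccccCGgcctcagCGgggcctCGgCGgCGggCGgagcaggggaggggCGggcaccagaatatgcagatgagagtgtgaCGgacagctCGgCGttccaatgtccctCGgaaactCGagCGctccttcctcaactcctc
Irx4: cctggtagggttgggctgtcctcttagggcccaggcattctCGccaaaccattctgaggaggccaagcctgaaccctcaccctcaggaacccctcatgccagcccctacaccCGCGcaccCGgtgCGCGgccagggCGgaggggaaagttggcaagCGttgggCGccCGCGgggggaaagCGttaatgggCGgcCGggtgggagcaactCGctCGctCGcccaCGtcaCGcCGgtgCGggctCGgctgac
Irx3: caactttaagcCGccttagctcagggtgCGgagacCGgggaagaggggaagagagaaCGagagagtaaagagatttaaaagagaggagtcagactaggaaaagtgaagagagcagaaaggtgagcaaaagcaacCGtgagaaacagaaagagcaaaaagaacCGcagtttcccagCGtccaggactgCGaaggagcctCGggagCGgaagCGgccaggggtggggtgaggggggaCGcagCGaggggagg
The Irx2 stretch holds 19 CpG pairs at 68.4% GC, that of Irx4 22 pairs at 68.8% GC and that of Irx3 13 pairs at 56.0% GC. All 3 stand above the median of 6 CpG pairs and 52.4% GC over 32851 promoters of the same length. For a GATA site the letters GATAA, held by 22.6% of those promoters, were searched on both strands. An Iroquois site was searched as ACANNTGT (held by 6.31%). A TCF/LEF site was searched as CTTTGA (held by 13.8%). None of these was found in the 3 stretches, which says only that the letters are not in these windows.

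The median log2 value of an array ranged from 5.10 to 5.27, and precision is limited by how many arrays a group has. The level of Epcam, an epithelial adhesion molecule, was lowest in a quadruple array (8.13 in quadruple 8) against 11.70 to 12.40 in normal gland. By group mean, normal gland held far more fat and muscle signal than the other groups. The mean of 8 adipocyte genes was 12.10 ± 0.18 (SD, n = 4) there and between 5.59 and 6.73 in the other 5 groups. That of 8 skeletal muscle genes was 12.17 ± 0.64 against 4.51 to 7.71. Single arrays reached the glands: quadruple 2 in fat (11.98), and triple K5Cre 7 (12.28), quadruple 5 (11.60) and quadruple 9 (11.59) in muscle. Xist was low on 3 arrays (normal gland 3 at 5.64, quadruple 5 at 5.72 and triple K5Cre 2 at 6.999). Arrays quadruple 1 and quadruple 12, both of animal Q190, agreed most closely of all pairs within a group (r = 0.9964 across genes, which are not independent replicates). Besides the ventral tumours, the labels do not say that several arrays of 1 animal are separate lesions, and the animal was kept as a block. As these are bulk tissues, fewer cells of a type and less RNA per cell cannot be told apart.

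Irx1 and Irx2, neighbours in their cluster, ran at similar height in both K5Cre groups and in normal gland and were low on most Bcat arrays without K5Cre. Irx2 read 8.18 at the lowest, 10.02 at the median and 11.21 at the highest among quadruple arrays. In triple K5Cre arrays it read 9.44, 10.28 and 10.90. The normal glands read 9.59, 10.22, 9.61 and 9.90. Quadruple arrays spread well beyond the glands on both sides, with 7 below every gland and 7 above. The masses read 7.48 and 8.52 and the ventral tumours 7.15, 7.54 and 7.61. The triple Bcat arrays read 7.33, 9.17 and 9.16. All 8 of these arrays lay under the lowest gland, and triple Bcat 1 stood apart from the pair that came from Tbc-266.

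Irx1 was likewise high in both K5Cre groups and normal gland and low in the Bcat groups. Its values in quadruple breast ran from 7.87 through a median of 10.26 to 11.81, and in triple K5Cre breast from 9.22 through 10.43 to 11.55. Normal gland arrays gave 9.98, 10.35, 9.84 and 10.17. Masses gave 7.79 and 7.47, ventral tumours 5.81, 6.85 and 7.57, and triple Bcat arrays 4.69, 9.74 and 9.09. Every one of the 8 Bcat arrays was again below every gland, and triple Bcat 1 held the lowest Irx1 value of the series. In the order of group means, triple K5Cre stood first (10.37 ± 0.73, SD, n = 8), then normal gland (10.08 ± 0.22, n = 4), quadruple (9.89 ± 1.28, n = 19), triple Bcat (7.84 ± 2.74, n = 3), masses (7.63 ± 0.23, n = 2) and ventral tumours (6.75 ± 0.89, n = 3). No gap between neighbours in that order exceeded the larger SD of the pair. For Irx2, with triple K5Cre first (10.25 ± 0.48) and ventral tumours last (7.43 ± 0.25), one gap did: that between normal gland (9.83 ± 0.30) and triple Bcat (8.55 ± 1.06).

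Irx4, the third gene of that cluster and known as a ventricular factor of the heart, spread widely among the breast arrays (SD 1.27 in quadruple and 1.87 in triple K5Cre). It ran from 5.07 through 7.50 to 8.93 in quadruple arrays and from 4.06 through 7.28 to 9.51 in triple K5Cre arrays. Normal glands read 7.14, 6.06, 7.19 and 7.01, so the K5Cre arrays scattered on both sides of them. The ventral tumours read 4.48, 4.62 and 4.83, the masses 5.34 and 6.05, and the triple Bcat arrays 5.12, 6.9998 and 7.05. All 5 Bcat-only lesions were below every gland, although masses 2 (6.05) was next to the lowest gland (6.06).

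Irx3 had the narrowest range of group means among the 6 genes, from 10.20 in masses to 11.07 in quadruple arrays. Its glands lay within 10.70 to 10.76, and its triple Bcat arrays (10.87, 11.12 and 10.68) lay on both sides of them. The ventral tumours (10.62, 10.58 and 10.30) were all below the glands. Quadruple arrays ran from 9.99 through 11.02 to 12.01, with 14 of 19 above every gland. Triple K5Cre arrays ran from 9.37 through 10.41 to 11.31, with 6 of 8 below every gland. The masses differed from each other: masses 1, at 9.34, was the lowest Irx3 array of the series, and masses 2, at 11.05, was above every gland.

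Irx5, which sits beside Irx3 and is best known from the heart and retina, lay at 8.64, 9.72 and 10.80 (lowest, median, highest) in quadruple arrays and at 8.24, 9.43 and 9.84 in triple K5Cre arrays. Glands read 9.36, 8.90, 9.01 and 8.92. In each of the 3 Bcat groups 1 array stood at least 1 log2 unit under the others: triple Bcat 1 at 7.09 (others 9.52 and 9.17), masses 1 at 7.26 (the other 9.21) and ventral tumour 1 at 6.20 (others 9.06 and 8.63). The Bcat groups thus overlapped normal gland for Irx5, through their higher arrays.

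Trps1 ran from 7.40 through 10.62 to 11.52 in quadruple arrays and from 9.39 through 9.83 to 11.45 in triple K5Cre arrays. Normal glands read 9.21, 9.90, 9.10 and 9.43. Of the quadruple arrays 14 lay above every gland and 3 below, the lowest being quadruple 8, the array lowest in Epcam. The masses read 6.83 and 8.07, the ventral tumours 7.78, 7.96 and 8.94, and the triple Bcat arrays 6.87, 9.57 and 8.74. All 5 Bcat-only lesions were under every gland, and triple Bcat overlapped the glands through triple Bcat 2.

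**Figure D1:**
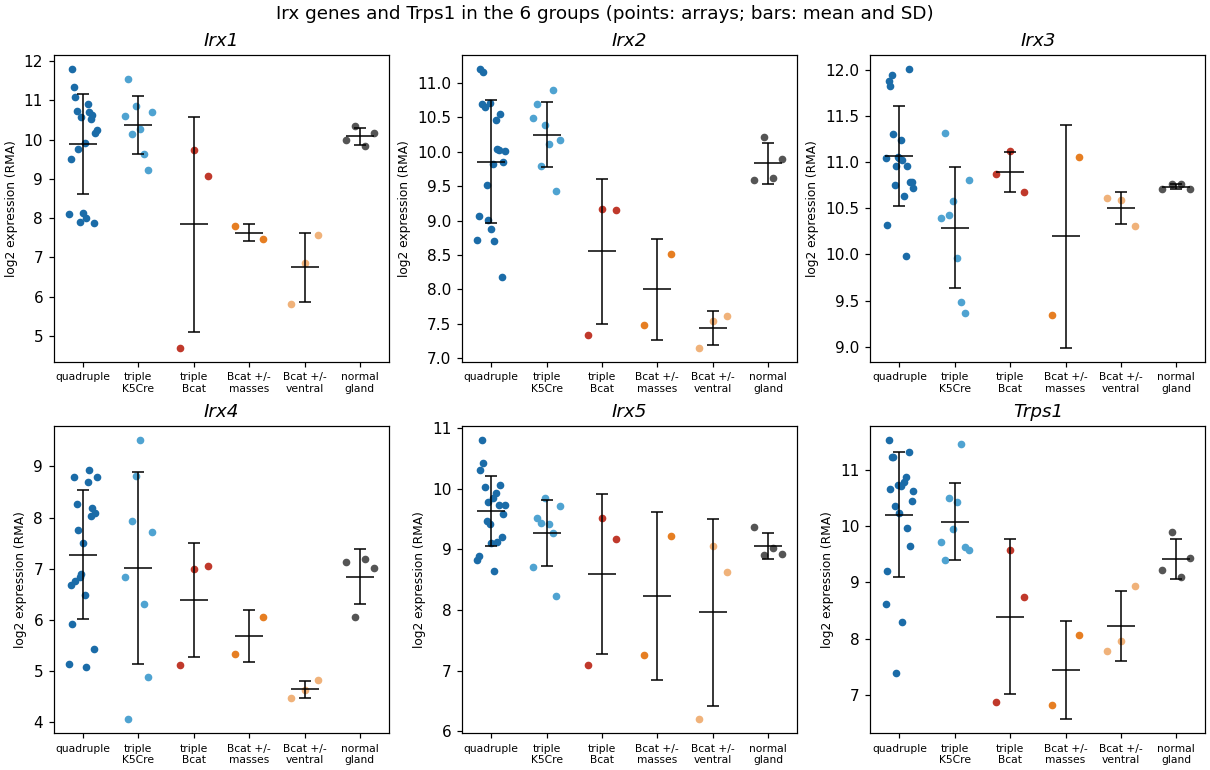
Log2 expression (RMA, vertical axes) of the 6 genes on each array (points) in the 6 groups, with bars for the group mean and SD. All masses and ventral tumours are below every gland for Irx1, Irx2, Irx4 and Trps1, and masses 2 (11.05) is above every gland for Irx3. Triple Bcat 1 (4.69 for Irx1) stands below the other triple Bcat arrays in every gene but Irx3.

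The contrast that chose Irx2 and Trps1 set 27 K5Cre arrays (23 animals) against 8 Bcat arrays without K5Cre (5 animals). Irx2 averaged 9.97 ± 0.80 against 7.99 ± 0.83, a log2 difference of 1.98 or 3.94-fold, with 21 of the 27 K5Cre arrays above every Bcat array; over the whole table a fit of this contrast called 9.58% of genes, and 5.21% of genes were called as higher. Trps1 averaged 10.16 ± 0.99 against 8.09 ± 0.96 (2.07, or 4.19-fold), with 22 of 27 above. The lowest K5Cre values, 8.18 for Irx2 and 7.40 for Trps1, lay inside the Bcat ranges (7.15 to 9.17 and 6.83 to 9.57). Irx1, which was not named by the rule, differed by 2.66 (10.03 ± 1.15 against 7.38 ± 1.63), Irx4 by 1.64, Irx5 by 1.25 and Irx3 by 0.27. The median over the 6 genes was 1.81, against 0.013 over all genes. With each animal counted once, the differences were 2.99 for Irx1, 2.08 for Irx2 and 2.45 for Trps1. These values carry no test, because they come from the contrast that chose the genes. Composition moved with it too: the mean of 12 squamous genes was 10.98 to 11.95 in the 3 Bcat groups against 9.29 in quadruple and 8.70 in triple K5Cre breast, and its part in these differences was not tested.

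Set against normal mammary gland, the Bcat-only lesions were lower in all 6 genes, and 2 of them, Irx1 and Irx2, passed the test; limma called 13.5% of all genes in this comparison, and 7.83% of all genes were called as lower. Irx1 averaged 7.10 ± 0.80 (SD, n = 5) in the lesions and 10.08 ± 0.22 (n = 4) in gland. Its fitted log2 difference was -2.81 (SE 0.83, 95% interval -4.50 to -1.12, adjusted p = 0.0209 by limma with Benjamini-Hochberg adjustment). Irx2 averaged 7.66 ± 0.51 and 9.83 ± 0.30, a fitted difference of -2.11 (SE 0.53, -3.18 to -1.04, adjusted p = 0.00641). Both ranges were clear of the glands. The fit gives the masses and the ventral tumours equal weight and the 3 ventral arrays come from 1 animal, so a fitted value can depart from what the printed means would give. The same Bcat arrays were the low side of the contrast that chose Irx2 and Trps1, so the fall of Irx2 is not independent of that choice. Irx1 entered as a relative of Irx2 and ran with it over the 39 arrays (r = 0.93). The call of Irx1 is therefore not separate from that choice either.

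Irx4 (-1.86, SE 0.89, adjusted p = 0.170) and Trps1 (-1.59, SE 0.68, adjusted p = 0.118) missed the threshold in the same comparison by limma, as did Irx5 (-0.91, SE 0.54, adjusted p = 0.282) and Irx3 (-0.29, SE 0.38, adjusted p = 0.692). The median over the 6 genes was -1.73, against 0.00024 over all genes. Irx2 and Trps1, chosen for low levels on these arrays among others, are part of that median. Leaving out normal gland 2, normal gland 4 or masses 2 ended the call of Irx1 (adjusted p = 0.0522, 0.0558 and 0.0658), while Irx2 passed in all 9 such fits (adjusted p from 0.00813 to 0.0439). With the adipocyte mean as a covariate neither passed, although the sizes were similar (Irx1 -2.39, adjusted p = 0.424; Irx2 -2.16, adjusted p = 0.262), and that fit called 6 genes in the whole table. With Epcam as a covariate both passed (Irx1 -2.10, adjusted p = 0.0382; Irx2 -1.67, adjusted p = 0.00870).

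Marker lists moved in the same lesions. Of 12 squamous genes 9 rose, with a list mean of 11.49 in masses and 11.95 in ventral tumours (10.80 to 12.34 over the 5 arrays) against 5.53 in gland (4.34 to 8.46). Of 8 adipocyte genes 7 fell, and of 8 skeletal muscle genes 7 fell. Of 10 luminal genes 2 fell, Kit, a receptor of luminal progenitors (-2.78, SE 0.80, adjusted p = 0.0176 by limma), and Pgr, the progesterone receptor (-3.77, SE 1.15, adjusted p = 0.0244). Epcam stood at 11.19 ± 0.79 against 12.16 ± 0.32 (adjusted p = 0.433). The part of cell composition in the falls of Irx1 and Irx2 was not tested, and the covariate fits above cannot decide it. The adipocyte mean parted all glands (11.93 to 12.28) from all 5 lesions (5.32 to 6.06), so it can hardly be told apart from the group. Epcam is 1 epithelial gene and does not stand for the squamous, fat or muscle lists.

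In triple Bcat breast against normal gland 0 of the 6 genes passed, where 7.12% of all genes did, and 2 of the 6 had an unadjusted p under 0.05, as did 4021 of the 18194 genes. Irx1 differed by -2.47 (SE 0.94, 95% interval -4.38 to -0.56, adjusted p = 0.106 by limma) and Irx2 by -1.40 (SE 0.59, adjusted p = 0.152). Trps1 differed by -1.18 (SE 0.77), Irx4 by -0.77 (SE 1.01), Irx5 by -0.57 (SE 0.60) and Irx3 by 0.25 (SE 0.43). One array decided the sizes: without triple Bcat 1 the differences were -0.60 for Irx1, -0.67 for Irx2 and -0.27 for Trps1. Array weights gave -0.49 for Irx1, -0.72 for Irx2 and 0.099 for Trps1. With arrays averaged per animal, Irx1 passed (-3.03, adjusted p = 0.0486), since that array then counts as 1 of 2 animals. Against the Bcat-only lesions, triple Bcat breast was higher in all 6 genes by 0.34 to 1.09, none passed, and limma called 0.055% of genes (408 genes had an unadjusted p under 0.05, none of the 6). With array weights 5 of the 6 passed there, all but Irx5, among 1821 genes called.

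Quadruple breast against normal gland gave 0 calls among the 6 genes, where 15.4% of all genes passed, and 0 of the 6 had an unadjusted p under 0.05 (5062 of all genes did). The largest differences were those of Trps1 (0.87, SE 0.52, 95% interval -0.19 to 1.93, adjusted p = 0.294 by limma), Irx5 (0.65, SE 0.41, adjusted p = 0.322) and Irx3 (0.44, SE 0.29, adjusted p = 0.346). Irx4 (0.29, SE 0.69) and Irx2 (0.08, SE 0.41) were smaller, and Irx1 (0.01, SE 0.64) had group means in the other order. The intervals of Irx1 (-1.30 to 1.32) and Irx4 (-1.11 to 1.69) leave room for changes of more than 2-fold either way. The median was 0.37 against 0.0079 over all genes. Trps1 passed under array weights (0.94, adjusted p = 0.0344 by limma) and with Epcam as a covariate (1.06, adjusted p = 0.0436 by limma). Both of these fits used the Trps1 probe set of highest mean. In the main fit the other Trps1 probe sets differed from normal gland by 0.10, -0.12 and 0.91. With all its probe sets averaged, Trps1 differed by 0.44 (adjusted p = 0.620 by limma). Quadruple arrays were also on the high side of the contrast that chose Trps1. The fit with array weights called 6718 genes in the whole table, against 2794 in the main fit.

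Triple K5Cre breast against normal gland also gave 0 calls among the 6, where 17.2% of all genes passed, and 0 had an unadjusted p under 0.05 (5368 of all genes did). The differences were 0.66 for Trps1 (SE 0.54), 0.43 for Irx2 (SE 0.42), 0.39 for Irx1 (SE 0.67), 0.27 for Irx5 (SE 0.43), -0.06 for Irx4 (SE 0.71) and -0.34 for Irx3 (SE 0.30). These 4 comparisons share the 4 normal glands, so they are not independent of each other. Animals T627 and T635 gave both a gland and a triple K5Cre breast array. Both arrays of T627 were among those low in Xist (5.64 in gland, 6.999 in breast). Its breast array was also the lowest of the series in Krt5 (5.74, against 9.73 in its gland). From gland to breast, Irx4 went from 7.19 to 4.06 in T627 and from 7.01 to 7.92 in T635. Irx1 went from 9.84 to 11.55 in T627 and from 10.17 to 10.15 in T635. Trps1 went from 9.10 to 9.39 and from 9.43 to 10.49. Trps1 and Irx5 were higher in the breast sample of both animals, and the other 4 genes moved in opposite directions in the pair.

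**Figure D2:**
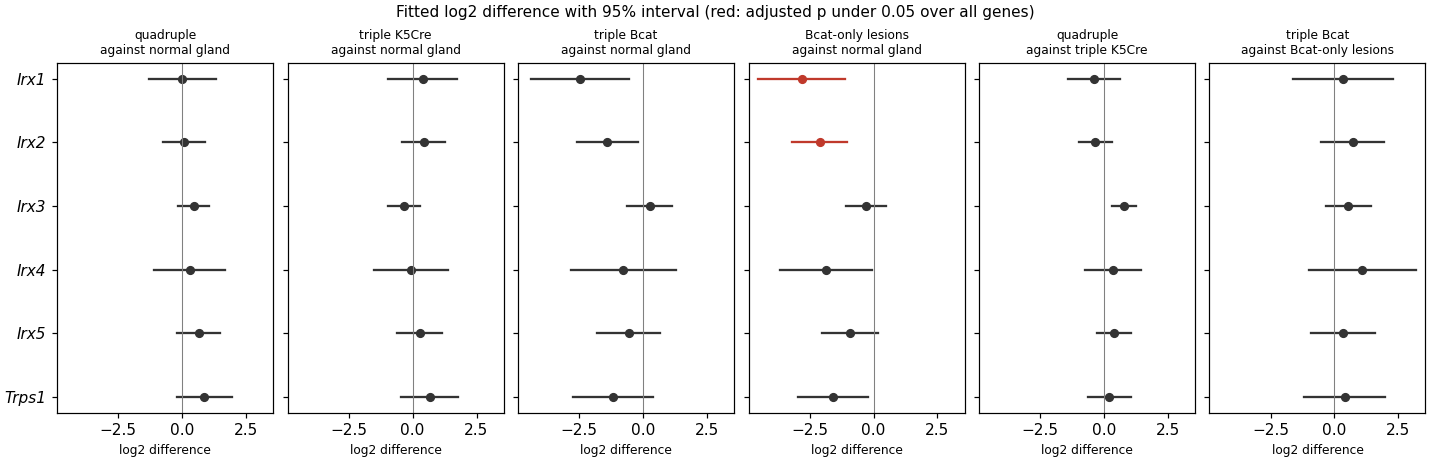
Fitted log2 difference (horizontal axis) with its 95% interval for each gene in the 6 tested comparisons; red marks an adjusted p under 0.05 over all genes. Irx1 (-2.81) and Irx2 (-2.11) in the Bcat-only lesions against normal gland are the marked points.

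Quadruple and triple K5Cre breast, which differ by Bcat in the label, were compared next. None of the 6 genes passed, and none of the 18194 did (0%), with 811 genes at an unadjusted p under 0.05. Irx3 averaged 11.07 ± 0.54 (SD, n = 19) in quadruple and 10.29 ± 0.66 (n = 8) in triple K5Cre arrays. Its fitted difference of 0.78 (SE 0.23, 95% interval 0.32 to 1.25, unadjusted p = 0.00165, adjusted p = 0.995 by limma) had the 20th smallest p of the table. The groups overlapped: the highest triple K5Cre array (11.31) was above the quadruple median. Irx3 was not named by the rule and neither of these groups was set against the other in it. The other 5 genes differed by -0.38 (Irx1, SE 0.50) to 0.38 (Irx5, SE 0.32), with Trps1 at 0.21 (SE 0.41, -0.62 to 1.04).

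The 4 Trps1 probe sets gave one picture for the Bcat lesions and a divided one for the K5Cre groups. In Bcat-only lesions against normal gland the chosen set, 1438214_at, differed by -1.59, 1449530_at by -1.70 (adjusted p = 0.0798 by limma), 1434286_at by -1.81 (adjusted p = 0.0804) and 1457445_at by -0.72 (adjusted p = 0.590). In quadruple breast against gland they differed by 0.87, 0.10, -0.12 and 0.91 in that order, and in triple K5Cre breast by 0.66, -0.02, -0.12 and 0.65. A direction for Trps1 between the K5Cre groups and normal gland thus depends on the probe set. Over the 39 arrays the others correlated with the chosen set at r = 0.94, 0.94 and 0.76. In the contrast that chose the gene they differed by 1.42, 1.45 and 1.39, against 2.07 for the chosen set.

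**Figure D3:**
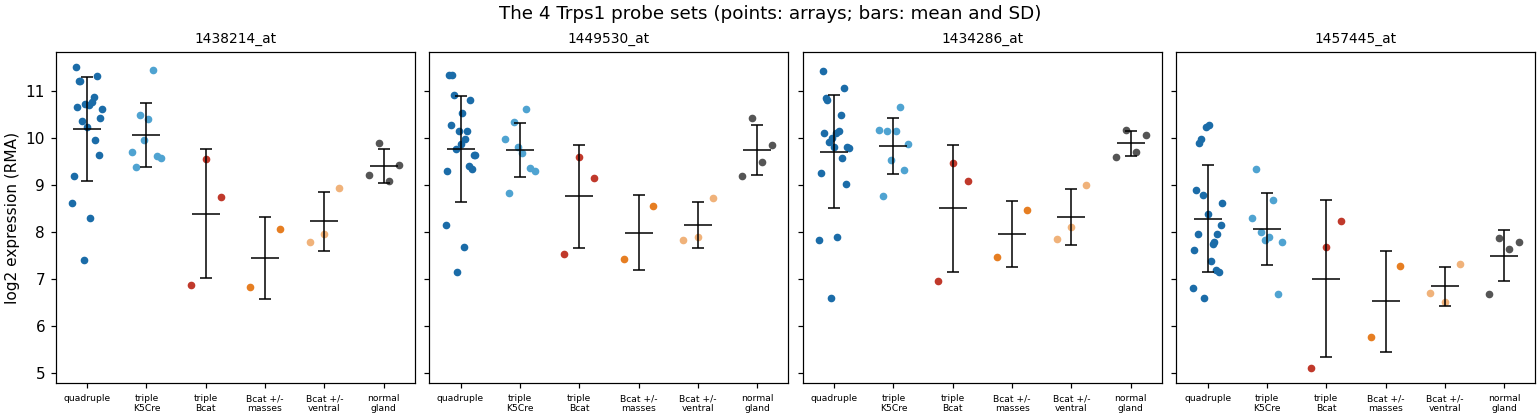
Log2 expression (vertical axis) of the 4 Trps1 probe sets on each array, by group, with bars for mean and SD; heights are not comparable between probe sets. In each panel the masses and ventral tumours average below normal gland, while the K5Cre groups average above it for 1438214_at and 1457445_at and close to it for the other sets.

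Within the quadruple group, where genotype is shared, Irx1, Irx2, Irx5 and Trps1 varied together from animal to animal. Over 15 animals, with arrays of 1 animal averaged, Irx1 and Irx2 gave Pearson's r = 0.95 and Spearman's rho = 0.97 (2-sided permutation p = 1e-05, the smallest that 100000 permutations can give; adjusted p = 0.00045 over 45 relations). Animal Q2164 was highest in both (11.81 and 11.21) and Q545 lowest (7.87 and 8.18). Irx2 and Trps1 gave r = 0.85 and rho = 0.86 (permutation p = 4e-05, adjusted 0.0009). Irx2 and Irx5 gave r = 0.85, Irx1 and Trps1 0.85, Irx1 and Irx5 0.79, Irx3 and Irx5 0.77, and Irx5 and Trps1 0.77. These 7 of 15 pairs passed the adjusted permutation test. Without the 2 animals farthest from the median of the first gene, their r lay between 0.73 and 0.89. How common such r values are over all gene pairs was not tested. Over the 19 quadruple arrays, Irx1 had r = 0.965 with Sox10 and 0.945 with Nfib, against 0.947 with Irx2. Irx2 had 0.950 with Shmt1 and 0.841 with Msi2. Trps1 had 0.864 with Tmtc4 and 0.718 with Hdhd3, against 0.786 with Irx2. These comparison genes were picked for likeness over all 39 arrays. Variation in common is thus not shown to be particular to the Irx genes and Trps1.

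Irx3 and Irx4 passed in fewer pairs. Irx3 passed with Irx5 alone; its r was 0.59 with Irx2 (adjusted permutation p = 0.0649), 0.47 with Trps1 and 0.41 with Irx1. Irx4 passed with none. Its highest r was 0.59, with Irx1 (rho = 0.50, permutation p = 0.0225, adjusted 0.0669), and this fell to 0.14 without the 2 animals farthest from the median. With Irx3 its r was -0.14. Q2164, the animal highest in Irx1, had a low Irx4 of 5.92, and Q535 the highest at 8.93.

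Of the 30 relations between a gene and a marker list mean in the same 15 animals, 5 passed on Pearson's r, all negative. Irx2 ran against the mean of 10 fibroblast genes at r = -0.77 (rho = -0.84, permutation p = 0.00066, adjusted 0.00495), Irx1 at -0.74 and Trps1 at -0.73. Q2164 had the lowest fibroblast mean (6.77) and Q545 the highest (11.33). Irx2 ran against the squamous mean at r = -0.70 (rho = -0.74, permutation p = 0.00385, adjusted 0.0157), which was -0.53 without 2 animals, and Irx1 at -0.64 (adjusted 0.0401), which was -0.50. On Spearman's rho alone, Irx5 (-0.64, adjusted permutation p = 0.0386) and Trps1 (-0.65, adjusted permutation p = 0.0379) passed against the squamous mean as well. Their adjusted permutation p on Pearson's r was 0.0649 and 0.103. The luminal mean gave r between 0.18 and 0.53 with the 6 genes, none passing. Irx1, Irx2 and Trps1 were thus lower in animals with more fibroblast signal, whose part in their shared variation was not tested.

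**Figure D4:**
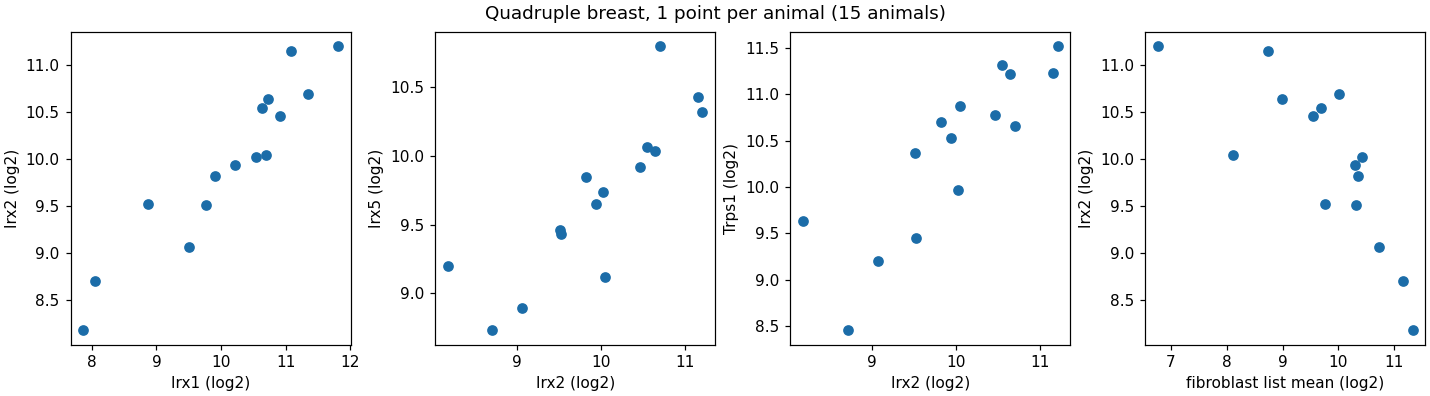
Each point is 1 of 15 quadruple animals; axes are log2 expression of the named genes or the mean of the fibroblast list. Irx2 rises with Irx1 (r = 0.95), Irx5 (0.85) and Trps1 (0.85) and falls as the fibroblast mean rises (-0.77).

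The 8 triple K5Cre animals, looked at afterwards, gave other values. Irx1 and Irx2 had r = 0.50 and rho = 0.43 (exact permutation p = 0.212, adjusted 0.469 over 15 pairs), and r was -0.31 without the 2 animals farthest from the median. Irx2 and Trps1 had r = 0.29 (exact permutation p = 0.488), Irx1 and Trps1 -0.50 (exact permutation p = 0.212) and Irx5 and Trps1 0.12. Without 2 animals the r of Trps1 was -0.81 with Irx2, -0.94 with Irx1 and -0.72 with Irx5. Irx5 had r = 0.64 with Irx1, 0.62 with Irx3 and 0.43 with Irx2. None of these pairs passed. Irx1 and Irx3 had r = 0.95 (exact permutation p = 0.0006, adjusted 0.0093; rho = 0.90, adjusted 0.0685). In quadruple animals Irx1 and Irx3 had r = 0.41. The difference between the groups was not tested. Triple K5Cre 6 had the highest Irx2 (10.90) and Trps1 (11.45) of its group with an Irx1 of 9.64.

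Samples of 1 quadruple animal differed by up to 3.34 log2 units, in Trps1. The 3 arrays of Q648 (quadruple 8, 9 and 10) read 7.90, 10.57 and 8.13 for Irx1. They read 9.001, 10.71 and 8.87 for Irx2, and 7.40, 10.73 and 10.24 for Trps1. Array 9 was high in all 3 genes, and array 10 was low in Irx1 and Irx2 but high in Trps1. Epcam read 8.13, 12.63 and 10.88 on them, and its part in these gaps was not tested. Irx3 stayed within 0.088 log2 units on the same arrays (10.96, 11.05 and 11.04). The Q190 arrays, by contrast, were within 0.32 of each other in all 6 genes.

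The genes whose pattern was most like each member over the 39 arrays are given by Pearson's r as a description; the arrays share animals, genotype and composition. For Irx1 they were Nfib, a nuclear factor I gene (0.95), Irx2 (0.93) and Sox10, a neural crest and mammary progenitor factor (0.93). For Irx2 they were Irx1 (0.93), Nfib (0.91), Shmt1, a serine hydroxymethyltransferase (0.90), Sox10 (0.89) and Msi2 (0.88). Trps1 was most like Tmtc4 (0.85), Irx2 (0.83), Shmt1 (0.82), Atp6v1b1 (0.82) and Hdhd3 (0.81). No test between groups is given for genes found this way, since the same arrays picked them. Irx4 was most like Lgr6, a stem cell receptor of skin (0.90), Edar, the ectodysplasin receptor (0.87), and Nop53 (0.86), none of which was among the genes most like another member. Irx3 had no close match (Plpbp 0.67, Fam234b 0.66, Ttpa 0.63).

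Irx5 was most like Crnde, the transcript that lies between Irx3 and Irx5 in the RefSeq gene table (GRCm38.p6), at r = 0.90; Rpl7a and Zfp101 followed at 0.77. Crnde read 5.27 in triple Bcat 1, 4.88 in masses 1 and 3.92 in ventral tumour 1, the arrays lowest in Irx5, and 6.14 to 7.07 in normal gland. Its r with Irx3, on its other side, was 0.52. Fto, next beyond the cluster, had r = 0.49 with Irx5 and 0.16 with Irx3.

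**Figure D5:**
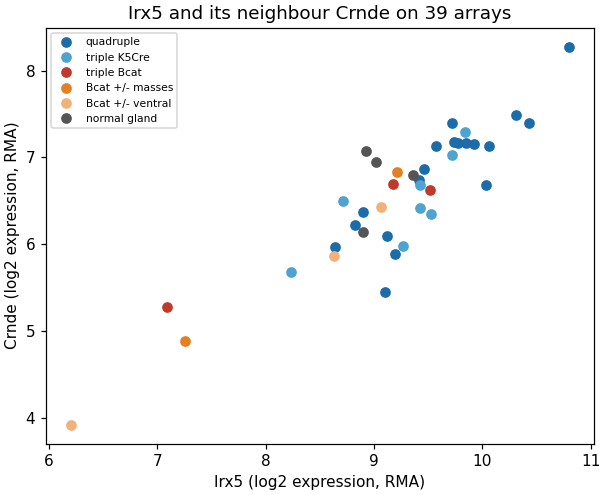
Log2 expression of Irx5 (horizontal axis) and Crnde (vertical axis) on each of the 39 arrays, coloured by group. The points lie along a line (r = 0.90), and 3 Bcat arrays, 1 from each Bcat group, lie at its lower end.

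Of the 13 named and measured genes nearest to the loci, none passed as lower in any comparison with normal gland. Quadruple against triple K5Cre breast called 0 of 18194 genes, and triple Bcat breast against Bcat-only lesions 10, so those comparisons could hardly call a neighbour. In Bcat-only lesions against normal gland 7.83% of all genes passed as lower, and 13.5% in either direction. With 13 genes, 0 as lower there is not read as a trait of the loci. Crnde, 1 of the 13, differed there by -1.14 (SE 0.53) without passing. In that comparison 1 of the 13 passed: Lpcat2, a lysophospholipid acyltransferase beside the Irx3 and Irx5 cluster, rose by 1.43 (SE 0.33, adjusted p = 0.00347 by limma). Lpcat2 also rose by 1.19 (SE 0.37, adjusted p = 0.0460 by limma) in triple Bcat breast. Around Irx1, Irx2 and Irx4, none of Adamts16, Ice1, Mrpl36 and Eprn passed against normal gland, a set too small to set against the share of all genes. Beside Trps1, Utp23, a ribosome biogenesis factor, rose in quadruple breast (0.42, SE 0.15, adjusted p = 0.04998) and triple K5Cre breast (0.54, SE 0.15, adjusted p = 0.0136), and Eif3h, a translation initiation subunit, rose in triple K5Cre breast (0.44, SE 0.15, adjusted p = 0.0329).

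Related transcription factors were read from the same fits against normal gland. Of 12 measured TALE homeobox genes outside the members, 1 passed in the Bcat-only lesions (13.5% of all genes did), 1 in quadruple (15.4%), 4 in triple K5Cre (17.2%) and 0 in triple Bcat breast (7.12%). The 1 in the Bcat-only lesions was Irx6 (3.58 ± 0.20 against 3.27 ± 0.17, adjusted p = 0.0450 by limma), whose level was low on every array and not separated from background, so no direction is read from it. In quadruple breast Pknox2 fell by 0.86 (SE 0.28), and in triple K5Cre breast Pbx3 (1.56, SE 0.50) and Tgif1 (1.01, SE 0.28) rose while Meis2 and Pknox2 fell by 1.28 (SE 0.38) and 1.07 (SE 0.29). The list's median in the Bcat-only lesions was -0.08. Of 8 GATA factors and cofactors, the class to which the zinc finger of Trps1 belongs, Gata6 fell against gland in quadruple (-1.81, SE 0.34), triple K5Cre (-1.74, SE 0.35) and triple Bcat breast (-1.55, SE 0.49, adjusted p = 0.0481), and none passed in the Bcat-only lesions. Gata3, the luminal GATA factor, read 9.64 ± 0.97 in those lesions against 9.55 ± 0.45 in gland. None of 12 hair follicle regulators passed against normal gland in any group, where 7.12% to 17.2% of all genes did. Their median difference ran from 0.16 in the Bcat-only lesions to 0.56 in triple Bcat breast. With 12 genes, no lack of change is read from the count.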

How the data were processed

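Per the labels' protocols, total RNA of 39 mouse samples was hybridised to Affymetrix arrays after 3' IVT Express labelling. For 45101 probe sets the authors deposited log2 values from RMA, which corrects background, normalizes arrays to each other and summarises probes, per the submitters' processing notes. The version of RMA is not given. Values ran from 1.65 to 14.61. Without detection calls, low values could not be told from background, and levels of different genes are not compared.

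Names came from the platform's annotation, updated through the RefSeq genes of GRCm38.p6: 34958 probe sets had 1 gene, 932 several (not named) and 9211 none, and 204 kept the platform's symbol. For each of 18194 genes the probe set of highest mean was taken, cross-hybridising sets serving for 100 genes that had no other. The filter on low values removed none of the 6 genes.

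Animals were read from the identifiers in the sample titles. All arrays entered 1 limma fit with a mean per group, the animal as a random block (duplicateCorrelation, consensus correlation 0.329) and an intensity trend in eBayes, adjusted by Benjamini-Hochberg over all genes within each of 6 comparisons. The fit was tested on simulated data. Where the labels do not say that arrays of 1 animal are separate lesions, p-values measure the spread between samples that may be technical repeats. Within quadruple animals, correlations were tested by 100000 permutations. Genes named beside the 6 members are the 5 most correlated for Irx2 and Trps1 and 3 for the others, the nearest 2 measured genes on each side of a locus, and called genes of fixed lists (TALE homeobox, GATA factors, hair follicle regulators, luminal, basal, squamous, fibroblast, adipocyte, skeletal muscle, endothelial, immune). Crnde was named as well because it lies between members. The members and lists were chosen with earlier results of these data known. Of the lists, those of basal, endothelial and immune genes had 3, 0 and 1 genes past the threshold in the Bcat-only lesions against normal gland, and the fibroblast list 1 of 10.

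Alternatives were no block, animal means, the compared groups alone, a filter on low values, cyclic loess, array weights, averaged probe sets, eBayes without trend, an adipocyte covariate, a paired fit and, for groups of 2 to 5, each array left out in turn. Some were chosen after seeing the data: leaving out the 3 arrays lowest in Xist or the array lowest in Epcam, an Epcam covariate, the other Trps1 probe sets, and the triple K5Cre correlations. Fits ran in limma 3.58.1 under R 4.3.3; the rest used Python 3.11.15 with scipy 1.17.1, pandas 2.3.3, matplotlib 3.10.9 and numpy 2.4.6.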

Additional observations from a re-analysis of the deposited data

Results flagged for a closer look

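Irx4 in normal gland had 1 array far from the others of its group: normal gland 2, at 6.06, against 7.01 to 7.19 for the other 3. This gland came from quadruple animal Q440 and was also the highest of the 4 for Irx1 (10.35), Irx2 (10.22) and Trps1 (9.90). The search covered 12 combinations of gene and group, and chance gives such a gap in about 1 of 20. Without that array the Irx4 difference between quadruple breast and normal gland was -0.03 in place of 0.29, and neither value passed the test.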

How the results depend on the processing

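Of the values recomputed for single genes, 574 kept their direction and their side of the threshold, 33 reversed, 12 newly passed and 5 no longer passed; of the counts of genes called, 109 stayed within 1.5 times and 10 did not. The count of called genes in Bcat-only lesions against normal gland (2) became 4 in a fit of the compared groups alone and 4 with array weights, adding Irx4 and Trps1. Those 2 fits called 5277 and 6516 of all 18194 genes, against 2460 in the main fit. With the adipocyte covariate the count became 0, and it lay between 1 and 2 when single arrays were left out. It became 1 for triple Bcat against normal gland with animal means, 1 for quadruple against normal gland with array weights or with the Epcam covariate, and 5 for triple Bcat against Bcat-only lesions with array weights. No reversed value had passed the test before or after. For quadruple against normal gland, Irx1 became -0.19 without the block, -0.095 in the groups alone, -0.085 with cyclic loess, -0.029 with array weights and -0.23 without the arrays lowest in Xist, and Irx2 became -0.12 without those arrays. Irx4 became -0.40 there with the adipocyte covariate. For triple K5Cre against normal gland, Irx4 became 0.16 without the block and with animal means, 0.21 in the groups alone, 0.55 with array weights and 0.74 without the arrays lowest in Xist. For triple Bcat against normal gland, array weights gave Irx5 0.41 and Trps1 0.10. Irx1 became -0.14 for triple Bcat against Bcat-only lesions with animal means and 0.088 for quadruple against triple K5Cre with the Epcam covariate. Irx4 in the last comparison became -0.027 with array weights and -0.062 without the arrays lowest in Xist. Trps1 became -0.021 (1449530_at) and -0.12 (1434286_at) in triple K5Cre and -0.12 (1434286_at) in quadruple breast against normal gland. Leaving out single arrays gave ranges that crossed 0 for Irx1 (-0.18 to 0.13), Irx2 (-0.050 to 0.21) and Irx4 (-0.030 to 0.70) in quadruple, Irx4 (-0.35 to 0.38) in triple K5Cre, Irx4 (-1.09 to 0.018) and Irx5 (-0.89 to 0.33) in triple Bcat and Irx3 (-0.71 to 0.14) in Bcat-only lesions, all against normal gland. They also crossed 0 for Irx1 (-0.30 to 2.22), Irx5 (-0.15 to 1.25) and Trps1 (-0.029 to 1.32) in triple Bcat against Bcat-only lesions. The causes of these changes were not tested.

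With the replicate block, a paired fit of the 2 animals that gave both tissues, Irx3 in triple K5Cre against normal gland became 0.13 in place of -0.34, and 0 of the 6 genes and 0 of all genes passed. Pairs rest on the shared animal identifier. For triple Bcat with normal gland alone, no correlation could be estimated, and that of all arrays was used. Arrays give no depth, and groups of 2 to 5 arrays limit the precision.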
